A study of Homo sapiens with 20 samples.

Results

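The comparison described here set the 18 h transcriptional response to the compound TK in the cell line DOHH2 against the same response in the cell line U2932. Both lines are labelled as diffuse large B cell lymphoma lines, that is, cultured tumour B cells. Polyadenylated RNA was sequenced and reads were counted per gene. Of the 20 libraries, 15 entered the comparison: 3 of DOHH2 treated with TK for 18 h, 5 of DOHH2 treated with DMSO (3 for 8 h, 2 for 18 h), 3 of U2932 treated with TK for 18 h and 4 of U2932 treated with DMSO (3 for 8 h, 1 for 18 h). The other 5 libraries, TK at 8 h, entered the filter on low counts, the scaling of the libraries and the estimate of the spread between libraries, but not the comparison itself. The response of a line was the log2 change of TK at 18 h over DMSO of both times, and the difference was the response of DOHH2 minus the response of U2932. A gene was called specific to a line where that line's response and the difference both passed an adjusted p of 0.05 and the other line did not pass. It was called shared where both responses passed in the same direction, and opposite where they passed in opposite directions. DMSO is the solvent control, the labels do not say what TK stands for or at what dose it was given, and no other agent or genetic change is named for any group.

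The transcription factor p53 raises the expression of its targets under stress or DNA damage, and these include its own inhibitor MDM2, the sestrins, which restrain the growth kinase complex mTORC1, and genes of growth arrest and cell death. Genes of mitosis are expressed mainly in G2 and M phase, and many carry CCAAT boxes and a CHR element (TTTGAA) in their promoters, through which they are repressed in non-dividing cells. In B cell lymphoma the p53 pathway is often disabled, while genes of mitosis are expressed in all growing cultures. In bulk RNA fewer cells of a state and less RNA per cell cannot be told apart.

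The promoters below belong to genes from both ends of the comparison, MDM2 and SESN1, which were higher with TK in DOHH2, and CCNB1, CCNB2 and CDC20, which were higher with TK in U2932. Each line gives 250 bases before to 50 bases after a RefSeq transcription start (GRCh38.p14), 5′ to 3′ on the strand of the gene. Capitals mark a p53 site in MDM2 and SESN1, and CCAAT or TTTGAA motifs, on either strand, in the others.
MDM2, chr12:68808767-68809066, plus strand: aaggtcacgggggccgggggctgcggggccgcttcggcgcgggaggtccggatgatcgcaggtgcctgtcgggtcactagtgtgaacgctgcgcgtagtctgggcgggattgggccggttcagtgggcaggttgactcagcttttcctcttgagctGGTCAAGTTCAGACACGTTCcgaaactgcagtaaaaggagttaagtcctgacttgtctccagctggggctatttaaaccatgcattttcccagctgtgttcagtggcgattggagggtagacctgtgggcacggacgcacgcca
SESN1, chr6:109008939-109009238, minus strand: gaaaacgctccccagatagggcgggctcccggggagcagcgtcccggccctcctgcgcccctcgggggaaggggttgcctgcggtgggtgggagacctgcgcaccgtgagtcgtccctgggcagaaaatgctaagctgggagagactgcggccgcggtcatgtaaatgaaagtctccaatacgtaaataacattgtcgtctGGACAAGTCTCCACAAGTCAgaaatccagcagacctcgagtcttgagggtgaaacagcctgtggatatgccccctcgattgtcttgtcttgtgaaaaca
CCNB1, chr5:69166900-69167199, plus strand: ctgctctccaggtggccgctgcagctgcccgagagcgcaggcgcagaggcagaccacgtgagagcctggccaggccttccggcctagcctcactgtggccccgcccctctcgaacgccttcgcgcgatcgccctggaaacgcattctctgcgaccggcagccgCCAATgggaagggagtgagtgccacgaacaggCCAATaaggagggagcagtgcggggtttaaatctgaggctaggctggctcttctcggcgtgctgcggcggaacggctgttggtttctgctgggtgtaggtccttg
CCNB2, chr15:59104896-59105195, plus strand: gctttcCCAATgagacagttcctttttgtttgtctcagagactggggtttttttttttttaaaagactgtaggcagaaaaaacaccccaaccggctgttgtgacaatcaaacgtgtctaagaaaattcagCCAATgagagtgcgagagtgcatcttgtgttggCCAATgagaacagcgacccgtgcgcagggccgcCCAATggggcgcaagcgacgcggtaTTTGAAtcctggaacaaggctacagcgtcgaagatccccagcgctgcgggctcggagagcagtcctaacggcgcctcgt
CDC20, chr1:43358731-43359030, plus strand: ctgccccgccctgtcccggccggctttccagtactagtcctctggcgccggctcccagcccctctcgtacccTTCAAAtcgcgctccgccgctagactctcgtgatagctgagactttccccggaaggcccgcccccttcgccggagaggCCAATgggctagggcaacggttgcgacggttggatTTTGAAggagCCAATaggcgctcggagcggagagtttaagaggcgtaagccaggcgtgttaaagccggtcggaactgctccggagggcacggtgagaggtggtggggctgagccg
hsa-miR-34a-5p, chr1:9151735-9151756, minus strand: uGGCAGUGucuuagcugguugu
The last line is the mature miR-34a-5p of RefSeq, with its seed (bases 2 to 8) in capitals. It is shown because its host transcript MIR34AHG passed in both lines, in opposite directions.

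The p53 site was searched on both strands as 20 bases with up to 3 mismatches to the consensus of paired decamers, with the core C and G of each decamer required. Its first base lay at -94 in the MDM2 window and at -49 in the SESN1 window, counted from the start of transcription. MDM2 has 4 such windows and SESN1 has 3, and the window printed was chosen because no other held more sites. Of 25 p53 targets with a promoter entry, 8 (32%) held such a site in at least 1 window, against 373 of 27305 genes (1.37%) in all and 0 of 29 genes of mitosis. TTTGAA, searched on both strands, was found for 19 of 29 genes of mitosis (65.5%) and 3 of 25 p53 targets (12%), against 4961 of all genes (18.2%). CCAAT, on both strands, was found for 23 of the 29 (79.3%) and 15 of the 25 (60%), against 10846 of all genes (39.7%). None of these matches was tested for binding, and a match describes the window only.

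The libraries held between 30363255 and 52275430 counts in genes, so that 1 count in the deepest library was 0.0191 CPM (counts scaled to library size, with TMM factors). TK replicate 1 of DOHH2 stood apart: counts with no unique alignment made up 56.6% of it and 20.7 to 34.3% of the remaining 14 libraries compared, and it lay at 32.3 on the first principal component of the DOHH2 libraries, the others between -14.0 and 6.79. In U2932, the DMSO 18 h library lay at -7.28 on the first component, closer to the TK libraries (-22.8 to -14.4) than the DMSO 8 h libraries did (14.7 to 25.02). The share of counts outside genes was 5.87 to 6.36% in U2932 with TK and 8.18 to 10.1% in U2932 with DMSO. The B cell genes MS4A1, PAX5, CD79A and CD79B were above 1 CPM in every group. MS4A1 averaged 77.0 CPM in DOHH2 with TK, 76.5 CPM in DOHH2 with DMSO, 1178 CPM in U2932 with TK and 1245 CPM in U2932 with DMSO. DOHH2 is known as a line of germinal centre type and U2932 as a line of activated B cell type. In the libraries labelled DOHH2, however, the germinal centre factors BCL6, LMO2 and MYBL1 averaged 0.0359, 0.359 and 0.954 CPM with TK and 0.100, 0.328 and 0.987 CPM with DMSO, so that 2 of 5 germinal centre markers (GCSAM and MME) reached 1 CPM, whereas all 5 did in U2932 and BCL6 averaged 359.7 CPM with TK and 395 CPM with DMSO there. All 4 activated B cell markers were at 1 CPM or more in every group, and IRF4 averaged 815 CPM in DOHH2 with TK, 793 CPM in DOHH2 with DMSO, 346 CPM in U2932 with TK and 389 CPM in U2932 with DMSO. ENTPD1 was also higher in DOHH2 (120 CPM with TK, 116 CPM with DMSO) than in U2932 (7.98 and 8.29 CPM). PIM1 and FOXP1 were lower in DOHH2, at 42.0 and 8.10 CPM with TK and 40.7 and 6.34 CPM with DMSO. In U2932 they averaged 90.8 and 40.5 CPM with TK and 137 and 46.2 CPM with DMSO. GCSAM was higher in DOHH2 (193 CPM with TK, 165 CPM with DMSO) than in U2932 (49.3 and 51.7 CPM). MME averaged 41.9 and 31.9 CPM in DOHH2 and 32.8 and 47.5 CPM in U2932, TK first. The identity of the lines was not tested, and DOHH2 here means the libraries so labelled. Summed T and NK cell markers (7 of 12 above the filter) were 6.399 to 6.81 CPM in DOHH2 with TK, 6.13 to 8.77 CPM in DOHH2 with DMSO, 9.78 to 10.3 CPM in U2932 with TK and 5.39 to 7.63 CPM in U2932 with DMSO. The U2932 groups did not overlap, and 15.4% of all genes likewise had every U2932 TK library above the U2932 DMSO libraries. TRAC, the T cell receptor alpha constant gene, and PRF1, perforin, rose in U2932, and CD2, CD3D and CD3G did not pass the filter on low counts. Summed myeloid markers (5 of 10 above the filter) were 0.689 to 0.898 CPM in DOHH2 with TK, 0.130 to 1.10 CPM in DOHH2 with DMSO, 1.39 to 2.62 CPM in U2932 with TK and 1.72 to 2.19 CPM in U2932 with DMSO, and ITGAM, an integrin, rose in U2932. Of the T and NK cell markers above the filter 2 of 7 rose in U2932, and of the myeloid markers 1 of 5. Over all genes 4.82% rose in U2932. The part of these markers in the U2932 response was not tested. Summed stromal and epithelial markers (8 of 12 above the filter) were 13.6 to 22.5 CPM in DOHH2 with TK, 12.2 to 28.8 CPM in DOHH2 with DMSO, 22.9 to 32.1 CPM in U2932 with TK and 28.3 to 34.4 CPM in U2932 with DMSO.

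Few genes passed in both lines. In DOHH2, 44 of 16478 genes tested passed (0.267%), 33 higher (0.200%) and 11 lower (0.0668%) with TK. In U2932, 1599 passed (9.70%), 795 higher (4.82%) and 804 lower (4.88%). The difference between the responses passed for 734 genes (4.45%), 278 with the larger value in DOHH2 (1.69%) and 456 with the larger value in U2932 (2.77%). Specific to DOHH2 were 26 genes (0.158%), 21 higher and 5 lower with TK, and specific to U2932 were 468 genes (2.84%), 292 higher and 176 lower with TK. Shared were 2 genes (0.0121%), both lower, which is 4.55% of the DOHH2 calls and 0.125% of the U2932 calls. The 4.55% was near the 4.82% of all genes higher and 4.88% lower in U2932. Likewise the 0.125% lay between the 0.0668% of all genes lower and 0.200% higher in DOHH2. The number of shared genes was thus near what the shares over all genes give. In opposite directions 3 genes passed. A further 13 genes passed in DOHH2 and 1126 in U2932 without a difference that passed, so that these are not shown to be particular to either line, and 237 genes passed in the difference alone.

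**Figure D1:**
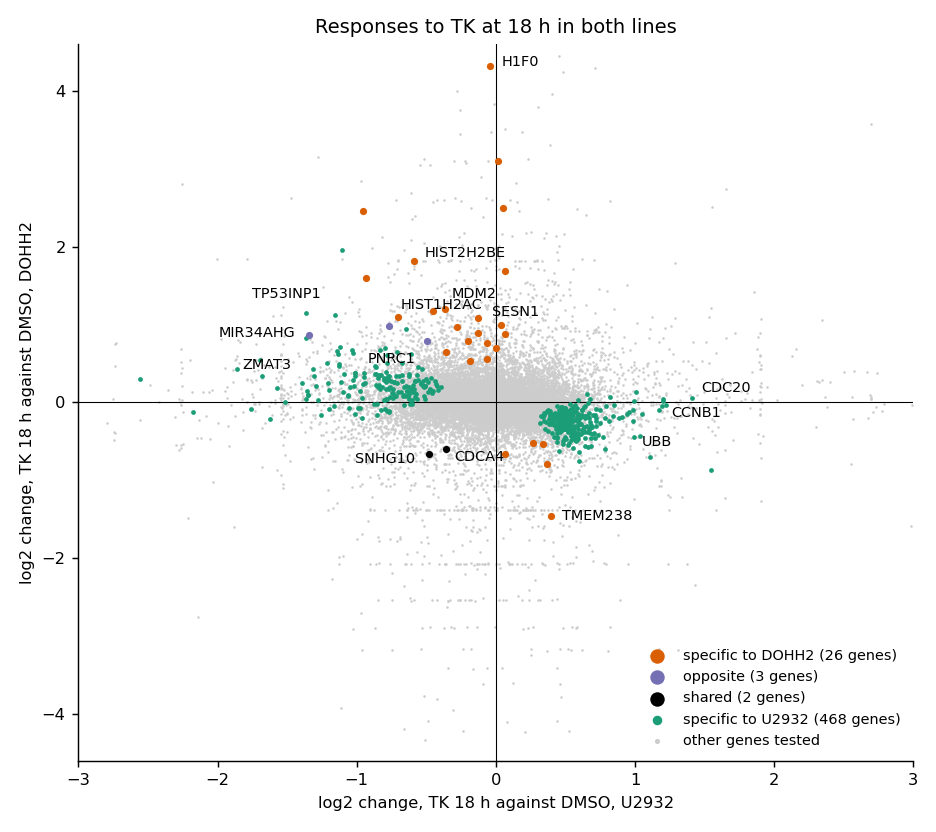
Each point is 1 of the genes tested, placed by its log2 change with TK at 18 h in U2932 (x axis) and in DOHH2 (y axis), and coloured by class; 33 genes lie outside the axes. Among the 468 genes specific to U2932, ZMAT3 and TP53INP1 lie at the upper left, at -1.12 and -1.16 in U2932 and 0.71 and 1.13 in DOHH2, H1F0 lies highest of the genes named at 4.32 in DOHH2, and both shared genes, SNHG10 and CDCA4, at the lower left.

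Among the 44 genes called in DOHH2, 18 had the same sign in U2932, and among the 1599 called in U2932, 699 had the same sign in DOHH2. Across all genes tested, which are not independent replicates, the responses had a Pearson r of -0.04 and a Spearman rho of -0.12. The sizes of these counts rested on single libraries and on the choice of controls. With DMSO of 18 h as the only control, which leaves 2 libraries in DOHH2 and 1 in U2932, 12 genes passed in DOHH2, 3 in U2932 and 4 in the difference, with 1411, 1227 and 1017 genes at an unadjusted p under 0.05, against 1787, 4455 and 3778 with the DMSO of both times. Only H1F0 of the 734 genes kept its call in the difference under that control. With 1 term for time shared by both lines, the counts were 33 in DOHH2, 138 in U2932 and 732 in the difference, of which 677 were among the 734. Time and TK cannot be told apart for much of the U2932 response, since 3 of its 4 controls are of 8 h.

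Leaving out 1 library at a time gave 26 to 62 calls in DOHH2, 80 to 2801 in U2932 and 70 to 1832 in the difference. The DOHH2 count was 28 without DOHH2 DMSO 8 h replicate 3, 29 without DOHH2 TK replicate 1 and 26 without TK replicate 3. The U2932 count was 80 without U2932 TK replicate 1, 183 without TK replicate 2 and 558 without TK replicate 3. It was 429, 206 and 594 without U2932 DMSO 8 h replicates 1, 2 and 3 in that order, and 2801 without the U2932 DMSO 18 h library. In the difference the count was 70 without U2932 TK replicate 1, 70 without TK replicate 2, 272 without TK replicate 3, and 147, 145 and 214 without U2932 DMSO 8 h replicates 1, 2 and 3. It was 1832 without the U2932 DMSO 18 h library, 417 and 238 without DOHH2 DMSO 8 h replicates 1 and 3, and 318 without DOHH2 TK replicate 2. Of the 52 genes named below with a difference past 0.05, 23 kept that call without each of the 15 libraries. Nothing in the labels says whether replicates came from separate cultures, and the p-values cover only the spread between these libraries, which may be technical.

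Several p53 target genes rose with TK in DOHH2, and none of those tested rose in U2932. MDM2 (12:68808176-68850686, GRCh38), the ubiquitin ligase that marks p53 for degradation, stood at 383, 449 and 482 CPM in DOHH2 with TK, against 192, 181 and 189 CPM (8 h) and 206 and 182 CPM (18 h) in DOHH2 with DMSO. The TK libraries all lay above the DMSO libraries, as for 3.76% of all genes, by a factor of 2.31 in the fit. MDM2 stood at 66.2, 78.9 and 65.5 CPM in U2932 with TK, against 99.0, 94.7 and 96.1 CPM (8 h) and 71.9 CPM (18 h) in U2932 with DMSO, and there the groups overlapped. For MDM2, the log2 change was 1.21 ± 0.12 (adjusted p = 1.13e-05) in DOHH2 and -0.37 ± 0.13 (adjusted p = 0.078) in U2932. The difference for MDM2 was 1.57 ± 0.18 (adjusted p = 0.000119).

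SESN1 (6:108986437-109094819), a sestrin, stood at 28.4, 28.2 and 26.7 CPM in DOHH2 with TK, against 13.9, 14.5 and 12.3 CPM (8 h) and 12.2 and 12.7 CPM (18 h) in DOHH2 with DMSO, without overlap. SESN1 stood at 9.60, 6.93 and 7.78 CPM in U2932 with TK, against 9.21, 9.60 and 8.88 CPM (8 h) and 7.75 CPM (18 h) in U2932 with DMSO. For SESN1, the log2 change was 1.08 ± 0.12 (adjusted p = 2.37e-05) in DOHH2 and -0.13 ± 0.13 (adjusted p = 0.551) in U2932. The difference for SESN1 was 1.21 ± 0.17 (adjusted p = 0.00187). SESN2, another sestrin gene that is also induced by amino acid and endoplasmic reticulum stress, stood at 83.8, 46.5 and 46.7 CPM in DOHH2 with TK, against 31.8, 31.7 and 28.6 CPM (8 h) and 28.6 and 27.9 CPM (18 h) in DOHH2 with DMSO. TK replicate 1 was the highest of the 3, and all 3 lay above DMSO. SESN2 stood at 27.4, 25.5 and 28.8 CPM in U2932 with TK, against 25.5, 26.0 and 30.6 CPM (8 h) and 24.4 CPM (18 h) in U2932 with DMSO, which overlap. For SESN2, the log2 change was 0.99 ± 0.15 (adjusted p = 0.00267) in DOHH2 and 0.03 ± 0.16 (adjusted p = 0.922) in U2932. The difference for SESN2 was 0.95 ± 0.23 (adjusted p = 0.0262). The call of SESN2 in the difference was lost without U2932 TK replicate 1 or 2 or any U2932 DMSO 8 h library.

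ZMAT3, which encodes an RNA-binding zinc finger protein, and TP53INP1, which encodes a p53-induced stress protein, fell with TK in U2932 and did not pass in DOHH2. ZMAT3 stood at 42.7, 62.5 and 56.0 CPM in DOHH2 with TK, against 33.0, 43.1 and 33.8 CPM (8 h) and 27.2 and 26.8 CPM (18 h) in DOHH2 with DMSO. ZMAT3 stood at 31.7, 28.3 and 28.8 CPM in U2932 with TK, against 68.9, 81.2 and 62.0 CPM (8 h) and 44.8 CPM (18 h) in U2932 with DMSO, below every control. For ZMAT3, the log2 change was 0.71 ± 0.21 (adjusted p = 0.184) in DOHH2 and -1.12 ± 0.23 (adjusted p = 0.00932) in U2932. The difference for ZMAT3 was 1.83 ± 0.31 (adjusted p = 0.00766). TP53INP1 stood at 62.4, 105 and 104 CPM in DOHH2 with TK, against 29.01, 45.3 and 40.7 CPM (8 h) and 39.2 and 52.8 CPM (18 h) in DOHH2 with DMSO, and the TK libraries lay above all DMSO libraries. TP53INP1 stood at 7.88, 7.30 and 8.03 CPM in U2932 with TK, against 18.2, 22.7 and 17.5 CPM (8 h) and 10.8 CPM (18 h) in U2932 with DMSO. For TP53INP1, the log2 change was 1.13 ± 0.26 (adjusted p = 0.0685) in DOHH2 and -1.16 ± 0.30 (adjusted p = 0.0223) in U2932. The difference for TP53INP1 was 2.28 ± 0.40 (adjusted p = 0.00911). In U2932 the DMSO 18 h library lay nearest to TK for both genes, and against it alone the log2 changes were -0.60 for ZMAT3 and -0.48 for TP53INP1. The U2932 call of ZMAT3 was lost without U2932 TK replicate 1 or 2, and that of TP53INP1 without any U2932 TK library or any U2932 DMSO 8 h library. The differences of MDM2, SESN1, ZMAT3 and TP53INP1 passed without each single library.

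**Figure D2:**
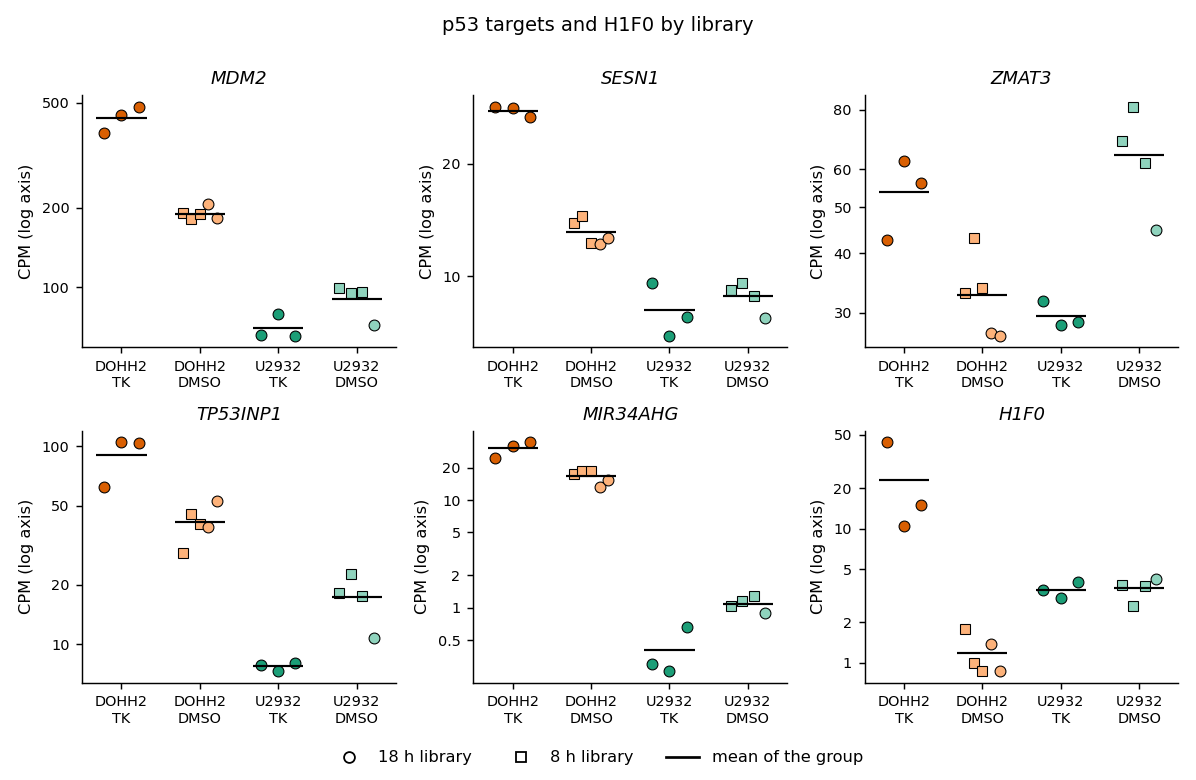
CPM (log axis) of 5 genes of the p53 response and of H1F0 in each library, with TK left of DMSO within a line; circles are 18 h libraries, squares are 8 h libraries and the bar is the group mean. MDM2 with TK in DOHH2 (383 to 482 CPM) lies above every other library, whereas ZMAT3 and TP53INP1 with TK in U2932 lie below every U2932 control.

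Of the 30 p53 targets listed, all of which passed the filter on low counts, 5 rose in DOHH2 (MDM2, SESN1, SESN2, BBC3 and XPC) and none fell, beside 0.200% higher among all genes. BBC3 encodes the cell death protein PUMA and XPC a DNA repair factor. In U2932 none rose and ZMAT3 and TP53INP1 fell, beside 4.82% of all genes higher and 4.88% lower. In the difference 8 passed, all with the larger value in DOHH2 (1.69% of all genes): MDM2, SESN1, SESN2, ZMAT3, TP53INP1, RRM2B, BTG2 and PPM1D. The median log2 change of the list was 0.52 in DOHH2, -0.10 in U2932 and 0.64 in the difference, beside 0.01, -0.02 and 0.05 over all genes. Positive were 28 of the 30 in DOHH2 and 12 in U2932. CDKN1A, the cell cycle inhibitor p21, had a log2 change of 0.80 in DOHH2 with an adjusted p of 0.103. Against DMSO of 18 h alone the medians were 0.66 in DOHH2, 0.05 in U2932 and 0.59 in the difference, and 3 members passed in DOHH2, 0 in U2932 and 0 in the difference. The DOHH2 count was 3 without DOHH2 DMSO 18 h replicate 1, without DMSO 18 h replicate 3 or without DMSO 8 h replicate 3, and 9 without the U2932 DMSO 18 h library. The count in the difference was 5 without U2932 TK replicate 1, 4 without TK replicate 2 and 13 without the U2932 DMSO 18 h library.

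H1F0 (22:37805093-37807436), the replication-independent linker histone H1.0, had the largest difference of the genes named here. It stood at 44.2, 10.5 and 15.1 CPM in DOHH2 with TK, against 1.79, 1.002 and 0.864 CPM (8 h) and 1.37 and 0.863 CPM (18 h) in DOHH2 with DMSO. TK replicate 1, the library that stood apart, was the highest, and the lowest TK library was still above the highest DMSO library. H1F0 stood at 3.48, 3.05 and 4.01 CPM in U2932 with TK, against 3.79, 2.67 and 3.74 CPM (8 h) and 4.23 CPM (18 h) in U2932 with DMSO, and these overlap. For H1F0, the log2 change was 4.32 ± 0.34 (adjusted p = 2.72e-07) in DOHH2 and -0.04 ± 0.35 (adjusted p = 0.964) in U2932. The difference for H1F0 was 4.36 ± 0.50 (adjusted p = 0.000119). The fitted change in DOHH2 was 19.9-fold. Without single libraries the difference lay between 3.49 and 4.71, and it passed without each of them and under every alternative run.

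Of the core histone genes listed, HIST2H2BE, HIST1H2BJ and HIST1H2AC rose with TK in DOHH2. HIST2H2BE, an H2B gene, stood at 7.01, 3.49 and 3.97 CPM in DOHH2 with TK, against 1.17, 1.14 and 2.16 CPM (8 h) and 1.31 and 1.05 CPM (18 h) in DOHH2 with DMSO. For HIST2H2BE, the log2 change was 1.81 ± 0.26 (adjusted p = 0.00102) in DOHH2 and -0.59 ± 0.29 (adjusted p = 0.19) in U2932. The difference for HIST2H2BE was 2.403 ± 0.39 (adjusted p = 0.00642). HIST2H2BE stood at 1.75, 1.17 and 1.35 CPM in U2932 with TK, against 1.81, 2.28 and 2.76 CPM (8 h) and 1.72 CPM (18 h) in U2932 with DMSO. HIST1H2BJ, another H2B gene, stood at 5.56, 2.96 and 4.04 CPM in DOHH2 with TK, against 0.912, 1.14 and 1.54 CPM (8 h) and 1.495 and 1.39 CPM (18 h) in DOHH2 with DMSO, without overlap. HIST1H2BJ stood at 0.729, 0.941 and 0.798 CPM in U2932 with TK, against 0.545, 0.740 and 0.874 CPM (8 h) and 0.957 CPM (18 h) in U2932 with DMSO. For HIST1H2BJ, the log2 change was 1.68 ± 0.22 (adjusted p = 0.000312) in DOHH2 and 0.07 ± 0.27 (adjusted p = 0.909) in U2932. The difference for HIST1H2BJ was 1.62 ± 0.35 (adjusted p = 0.0189). The call of HIST1H2BJ in the difference was lost without U2932 TK replicate 1 or 2.

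Of 13 core and linker histones listed, 12 passed the filter, 4 rose in DOHH2 (H1F0, HIST2H2BE, HIST1H2BJ and HIST1H2AC; 0.200% of all genes rose), 1 fell in U2932 (HIST1H2AC) and 5 passed in the difference (these 4 and HIST1H2BK), all with the larger value in DOHH2, beside 1.69% of all genes. The medians were 0.57 in DOHH2, -0.03 in U2932 and 0.53 in the difference. Without DOHH2 TK replicate 1 the median in DOHH2 was 0.26. The count in the difference was 3 without U2932 TK replicate 1 or replicate 2, and against DMSO of 18 h alone 3 members passed in DOHH2 and 1 in the difference. Most core histone transcripts lack a poly(A) tail and have near-identical copies, so that their counts in polyadenylated RNA are uncertain.

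MIR34AHG, PNRC1 and HIST1H2AC passed in both lines in opposite directions, higher in DOHH2 and lower in U2932. MIR34AHG (1:9148011-9198906), the host transcript of miR-34a, a p53-induced microRNA, stood at 24.7, 31.5 and 34.5 CPM in DOHH2 with TK, against 17.5, 18.7 and 18.6 CPM (8 h) and 13.1 and 15.4 CPM (18 h) in DOHH2 with DMSO. In U2932, MIR34AHG stood far lower, at 0.298, 0.257 and 0.665 CPM in U2932 with TK, against 1.03, 1.16 and 1.28 CPM (8 h) and 0.899 CPM (18 h) in U2932 with DMSO. In neither line did the groups overlap. For MIR34AHG, the log2 change was 0.86 ± 0.16 (adjusted p = 0.0185) in DOHH2 and -1.34 ± 0.27 (adjusted p = 0.00901) in U2932. The difference for MIR34AHG was 2.20 ± 0.32 (adjusted p = 0.00187). Against DMSO of 18 h alone the log2 changes were 1.09 in DOHH2 and -1.07 in U2932.

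PNRC1, a coregulator of nuclear receptors, stood at 43.4, 50.2 and 47.8 CPM in DOHH2 with TK, against 29.3, 25.9 and 24.7 CPM (8 h) and 29.5 and 26.8 CPM (18 h) in DOHH2 with DMSO. PNRC1 stood at 23.7, 25.8 and 25.9 CPM in U2932 with TK, against 35.9, 37.4 and 40.0 CPM (8 h) and 28.9 CPM (18 h) in U2932 with DMSO, again without overlap. For PNRC1, the log2 change was 0.79 ± 0.12 (adjusted p = 0.00153) in DOHH2 and -0.50 ± 0.12 (adjusted p = 0.02) in U2932. The difference for PNRC1 was 1.29 ± 0.17 (adjusted p = 0.000875). HIST1H2AC, an H2A gene, stood at 6.29, 8.47 and 8.79 CPM in DOHH2 with TK, against 3.61, 4.25 and 4.16 CPM (8 h) and 4.21 and 3.60 CPM (18 h) in DOHH2 with DMSO, without overlap. HIST1H2AC stood at 3.01, 4.08 and 2.79 CPM in U2932 with TK, against 3.99, 7.79 and 6.26 CPM (8 h) and 4.40 CPM (18 h) in U2932 with DMSO, where TK replicate 2 lay above DMSO 8 h replicate 1. For HIST1H2AC, the log2 change was 0.98 ± 0.21 (adjusted p = 0.0372) in DOHH2 and -0.77 ± 0.23 (adjusted p = 0.0379) in U2932. The difference for HIST1H2AC was 1.75 ± 0.31 (adjusted p = 0.00911). The calls within a line rested on single libraries: the U2932 call of MIR34AHG was lost without U2932 TK replicate 1 or 2 and its DOHH2 call without DOHH2 TK replicate 2 or 3 or DOHH2 DMSO 18 h replicate 3. The U2932 call of PNRC1 was lost without any U2932 TK library or any U2932 DMSO 8 h library. The U2932 call of HIST1H2AC was lost without any U2932 TK library or U2932 DMSO 8 h replicate 2 or 3, and its DOHH2 call without any 1 of the 15 libraries except DOHH2 TK replicate 1, U2932 TK replicates 2 and 3, U2932 DMSO 8 h replicates 1 and 2 and U2932 DMSO 18 h replicate 2. All 3 differences passed without each single library.

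KLHL24, GABARAPL1 and CALCOCO1 were also specific to DOHH2 and higher with TK. KLHL24, a kelch-like adaptor that is a target of FOXO factors, stood at 30.3, 38.1 and 36.4 CPM in DOHH2 with TK, against 14.2, 17.7 and 14.6 CPM (8 h) and 16.9 and 18.2 CPM (18 h) in DOHH2 with DMSO. KLHL24 stood at 49.9, 35.2 and 37.8 CPM in U2932 with TK, against 92.8, 64.9 and 72.6 CPM (8 h) and 36.1 CPM (18 h) in U2932 with DMSO: the DMSO 18 h library lay among the TK libraries and far below the 8 h controls. For KLHL24, the log2 change was 1.09 ± 0.21 (adjusted p = 0.0217) in DOHH2 and -0.70 ± 0.23 (adjusted p = 0.0554) in U2932. The difference for KLHL24 was 1.796 ± 0.32 (adjusted p = 0.00911). GABARAPL1, an ATG8-family protein of autophagosomes, stood at 2.405, 2.17 and 2.002 CPM in DOHH2 with TK, against 0.879, 1.18 and 1.22 CPM (8 h) and 1.04 and 1.27 CPM (18 h) in DOHH2 with DMSO. GABARAPL1 stood far higher in U2932, at means of 14.8 CPM with TK and 18.0 CPM with DMSO, and reached the 5 CPM of the rule for named genes only there. For GABARAPL1, the log2 change was 0.96 ± 0.18 (adjusted p = 0.0139) in DOHH2 and -0.28 ± 0.16 (adjusted p = 0.259) in U2932. The difference for GABARAPL1 was 1.24 ± 0.24 (adjusted p = 0.0116). CALCOCO1, a coiled-coil coactivator and autophagy receptor, stood at 40.4, 30 and 28.2 CPM in DOHH2 with TK, against 14.7, 19.5 and 16.9 CPM (8 h) and 17.8 and 19.9 CPM (18 h) in DOHH2 with DMSO. For CALCOCO1, the log2 change was 0.89 ± 0.13 (adjusted p = 0.0016) in DOHH2 and -0.13 ± 0.14 (adjusted p = 0.599) in U2932. The difference for CALCOCO1 was 1.01 ± 0.19 (adjusted p = 0.0116). None of the 3 overlapped between the DOHH2 groups, which the rule for named genes required. Over all genes, 3.76% had the TK libraries of DOHH2 above all its DMSO libraries. Of 25 autophagy and lysosome genes, 24 passed the filter, GABARAPL1 alone rose in DOHH2 and LAMP2, a lysosomal membrane protein, fell in U2932. Over all genes 0.200% rose in DOHH2 and 4.88% fell in U2932. Positive in DOHH2 were 12 of the 24, with a median of 0.01. The DOHH2 call of KLHL24 was lost without DOHH2 TK replicate 2 or 3 or DOHH2 DMSO 8 h replicate 1 or 3, and that of GABARAPL1 without DOHH2 TK replicate 1 or 2.

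NEAT1, the long non-coding RNA that scaffolds paraspeckles, stood at 288, 324 and 365 CPM in DOHH2 with TK, against 171, 169 and 163 CPM (8 h) and 178 and 203 CPM (18 h) in DOHH2 with DMSO. NEAT1 stood at 164, 152 and 139.7 CPM in U2932 with TK, against 157, 124 and 129 CPM (8 h) and 169.7 CPM (18 h) in U2932 with DMSO, which overlap. For NEAT1, the log2 change was 0.88 ± 0.11 (adjusted p = 0.000243) in DOHH2 and 0.06 ± 0.12 (adjusted p = 0.771) in U2932. The difference for NEAT1 was 0.82 ± 0.16 (adjusted p = 0.0155). STAT2, a transcription factor of the interferon response, stood at 123, 103 and 105 CPM in DOHH2 with TK, against 64.3, 63.9 and 56.8 CPM (8 h) and 82.6 and 85.9 CPM (18 h) in DOHH2 with DMSO. Its DMSO libraries of 18 h lay above those of 8 h, and against DMSO of 18 h alone its change in DOHH2 was 0.39. For STAT2, the log2 change was 0.64 ± 0.13 (adjusted p = 0.027) in DOHH2 and -0.36 ± 0.14 (adjusted p = 0.0978) in U2932. The difference for STAT2 was 1.001 ± 0.19 (adjusted p = 0.0116). KDM5B, a histone H3K4 demethylase, stood at 8.14, 6.30 and 6.43 CPM in DOHH2 with TK, against 4.07, 4.39 and 3.97 CPM (8 h) and 3.75 and 3.86 CPM (18 h) in DOHH2 with DMSO. For KDM5B, the log2 change was 0.79 ± 0.15 (adjusted p = 0.0196) in DOHH2 and -0.20 ± 0.15 (adjusted p = 0.415) in U2932. The difference for KDM5B was 0.996 ± 0.22 (adjusted p = 0.0198). FAM212B, an inhibitor of the kinase PAK4, had log2 changes of 1.17 ± 0.24 (adjusted p = 0.0316) in DOHH2 and -0.45 ± 0.22 (adjusted p = 0.193) in U2932, and a difference of 1.62 ± 0.33 (adjusted p = 0.0155). FAM212B averaged 2.95 CPM with TK and 1.29 CPM with DMSO in DOHH2, against 11.2 and 15.3 CPM in U2932. The call in the difference was lost without U2932 TK replicate 2 for NEAT1, without U2932 TK replicate 1 or 2 for KDM5B and without U2932 TK replicate 1 for FAM212B. The DOHH2 call of STAT2 was lost without any DOHH2 TK library, any DOHH2 DMSO 8 h library or U2932 DMSO 8 h replicate 2, that of KDM5B without DOHH2 TK replicate 1 or 3, DOHH2 DMSO 8 h replicate 3 or DOHH2 DMSO 18 h replicate 3, and that of FAM212B without DOHH2 TK replicate 1 or 3, any DOHH2 DMSO 8 h library, any DOHH2 DMSO 18 h library or U2932 DMSO 8 h replicate 2.

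Of the 5 genes specific to DOHH2 and lower with TK, the transcripts TMEM238, ENDOG, NUTF2 and DANCR are described first. TMEM238, which encodes a transmembrane protein, stood at 1.88, 2.16 and 2.33 CPM in DOHH2 with TK, against 4.92, 5.35 and 6.398 CPM (8 h) and 6.56 and 6.09 CPM (18 h) in DOHH2 with DMSO. TMEM238 stood at 3.05, 4.05 and 3.86 CPM in U2932 with TK, against 1.89, 2.07 and 2.27 CPM (8 h) and 4.73 CPM (18 h) in U2932 with DMSO, and the DMSO 18 h library was the highest of the 7. For TMEM238, the log2 change was -1.47 ± 0.28 (adjusted p = 0.0185) in DOHH2 and 0.40 ± 0.28 (adjusted p = 0.375) in U2932. The difference for TMEM238 was -1.86 ± 0.39 (adjusted p = 0.0179). ENDOG, the mitochondrial endonuclease G, stood at 11.4, 14.1 and 13.2 CPM in DOHH2 with TK, against 20.1, 23.9 and 25.3 CPM (8 h) and 21.4 and 21.3 CPM (18 h) in DOHH2 with DMSO. ENDOG stood at 23.6, 27.2 and 24.4 CPM in U2932 with TK, against 15.7, 17.6 and 21.8 CPM (8 h) and 22.6 CPM (18 h) in U2932 with DMSO, where the TK libraries lay above all DMSO libraries. For ENDOG, the log2 change was -0.80 ± 0.15 (adjusted p = 0.0154) in DOHH2 and 0.37 ± 0.15 (adjusted p = 0.116) in U2932. The difference for ENDOG was -1.16 ± 0.21 (adjusted p = 0.00976). NUTF2, which carries Ran into the nucleus, had log2 changes of -0.53 ± 0.11 (adjusted p = 0.0372) in DOHH2 and 0.34 ± 0.11 (adjusted p = 0.0575) in U2932, a difference of -0.87 ± 0.16 (adjusted p = 0.00976). DANCR, a long non-coding RNA and snoRNA host, had log2 changes of -0.52 ± 0.11 (adjusted p = 0.0372) in DOHH2 and 0.27 ± 0.11 (adjusted p = 0.13) in U2932, a difference of -0.79 ± 0.16 (adjusted p = 0.0134). For all 4 of these, the TK libraries of DOHH2 lay below all its DMSO libraries. The rule for named genes required this, and it held for 4.45% of all genes. The DOHH2 call was lost without any DOHH2 TK library for TMEM238, and without DOHH2 TK replicate 1 or 3 for ENDOG. For NUTF2 it was lost without any 1 of the 15 libraries except DOHH2 DMSO 8 h replicate 1, U2932 DMSO 8 h replicate 1 and U2932 DMSO 18 h replicate 2. For DANCR it was lost without any 1 of the 15 libraries except DOHH2 TK replicate 3, DOHH2 DMSO 8 h replicate 2, U2932 TK replicate 2, U2932 DMSO 8 h replicate 1 and U2932 DMSO 18 h replicate 2. The difference was lost without U2932 TK replicate 2 for TMEM238 and DANCR.

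The last of the 5, POLR3K, a subunit of RNA polymerase III, fell by 0.67 ± 0.14 in DOHH2, against a log2 change of 0.07 ± 0.14 in U2932. The rule for named genes did not reach every gene specific to DOHH2, and those that follow were chosen after their values were seen. Higher with TK in DOHH2 were ACER2, an alkaline ceramidase (1.59 ± 0.33), TRIM38, a ubiquitin ligase (0.55 ± 0.10), ZNF608, a zinc finger protein (0.77 ± 0.15), UBE2H, a ubiquitin-conjugating enzyme (0.53 ± 0.09), and NBR1, an autophagy receptor (0.70 ± 0.12), each as a log2 change. MYCT1, RGMA and AL021807.1 were also called, at means of 0.279, 0.544 and 0.751 CPM in DOHH2 with TK and 0.0446, 0.0600 and 0.132 CPM in DOHH2 with DMSO. These DMSO means lay below the filter of 0.288 CPM in at least 3 libraries. Within DOHH2 these genes could thus reach the filter mainly through the TK libraries, where they are high, and their calls are uncertain.

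The shared genes both fell. SNHG10, a snoRNA host transcript on chromosome 14, stood at 6.55, 7.33 and 7.19 CPM in DOHH2 with TK, against 11.1, 9.89 and 11.5 CPM (8 h) and 11.3 and 11.7 CPM (18 h) in DOHH2 with DMSO. SNHG10 stood at 8.41, 10.4 and 8.71 CPM in U2932 with TK, against 11.9, 12.4 and 13.5 CPM (8 h) and 13.4 CPM (18 h) in U2932 with DMSO. The groups did not overlap in either line. For SNHG10, the log2 change was -0.66 ± 0.12 (adjusted p = 0.0185) in DOHH2 and -0.48 ± 0.13 (adjusted p = 0.0249) in U2932. The difference for SNHG10 was -0.18 ± 0.18 (adjusted p = 0.579). CDCA4, a nuclear protein linked to E2F-dependent transcription, stood at 44.1, 50.4 and 47.1 CPM in DOHH2 with TK, against 67.0, 67.0 and 72.6 CPM (8 h) and 71.3 and 77.7 CPM (18 h) in DOHH2 with DMSO. CDCA4 stood at 43.0, 60.1 and 51.9 CPM in U2932 with TK, against 63.8, 64.3 and 71.1 CPM (8 h) and 66.4 CPM (18 h) in U2932 with DMSO, again without overlap. For CDCA4, the log2 change was -0.59 ± 0.11 (adjusted p = 0.0107) in DOHH2 and -0.36 ± 0.11 (adjusted p = 0.04) in U2932. The difference for CDCA4 was -0.23 ± 0.15 (adjusted p = 0.372). These calls rested on single libraries: for SNHG10 the DOHH2 call was lost without any 1 of the 3 DOHH2 TK libraries and the U2932 call without any U2932 TK library or U2932 DMSO 8 h replicate 2 or 3. For CDCA4 the DOHH2 call was lost without DOHH2 TK replicate 1 or 3 and the U2932 call without any U2932 TK library or any U2932 DMSO 8 h library. No gene was shared without DOHH2 TK replicates 1 or 3, without U2932 DMSO 8 h replicates 2 or 3, or without any U2932 TK replicate, and 1 was without DOHH2 TK replicate 2 or U2932 DMSO 8 h replicate 1. With a replicate block the DOHH2 call of SNHG10 and the U2932 call of CDCA4 were lost, with a shared term for time or no filter the U2932 calls of both, and with DMSO of 18 h alone the calls of both in both lines. SNHG10 has an antisense neighbour, and the strand setting of the counting is not given in the sources used here.

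The 5 genes nearest to passing in both lines passed in U2932 only and are given as values. EXOSC6, a subunit of the RNA exosome, had log2 changes of -0.41 ± 0.11 (adjusted p = 0.153) in DOHH2 and -0.48 ± 0.12 (adjusted p = 0.0188) in U2932. DDIT3, the stress transcription factor CHOP, had log2 changes of 0.46 ± 0.13 (adjusted p = 0.16) in DOHH2 and 0.54 ± 0.13 (adjusted p = 0.0197) in U2932. It stood at 12.6, 11.7 and 14.2 CPM in DOHH2 with TK, against 9.70, 8.73 and 10.7 CPM (8 h) and 8.67 and 8.48 CPM (18 h) in DOHH2 with DMSO, and at 25.3, 25.4 and 25.1 CPM in U2932 with TK, against 16.7, 14.8 and 17.1 CPM (8 h) and 20.8 CPM (18 h) in U2932 with DMSO. FAM222A had log2 changes of -0.86 ± 0.25 (adjusted p = 0.171) in DOHH2 and -1.57 ± 0.29 (adjusted p = 0.005) in U2932. PAQR4 had -0.53 ± 0.15 (adjusted p = 0.174) in DOHH2 and -0.67 ± 0.16 (adjusted p = 0.0167) in U2932. LINC01480, a long non-coding RNA, had 0.93 ± 0.21 (adjusted p = 0.0572) in DOHH2 and 0.72 ± 0.21 (adjusted p = 0.0348) in U2932. In all 5, the TK libraries of each line lay on 1 side of its DMSO libraries. Over all genes, TK lay above DMSO for 3.76% in DOHH2 and 15.4% in U2932, and below it for 4.45% and 13.6%. The 5 were chosen by small p-values in both lines, so their separation is no further evidence of a shared response. None of the differences of these 5 passed. The U2932 calls were lost without any U2932 TK library or U2932 DMSO 8 h replicate 2 or 3 for EXOSC6, any U2932 TK library or any U2932 DMSO 8 h library for DDIT3 and LINC01480, U2932 TK replicate 1 for FAM222A and U2932 TK replicate 1 or 2 or U2932 DMSO 8 h replicate 2 for PAQR4.

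Many genes of mitosis rose with TK in U2932, and none passed in DOHH2. CCNB1 (5:69167010-69178245), cyclin B1 of the mitotic kinase CDK1, stood at 141, 143 and 165 CPM in DOHH2 with TK, against 150.3, 124 and 146 CPM (8 h) and 174 and 145 CPM (18 h) in DOHH2 with DMSO, which overlap. CCNB1 stood at 403, 368 and 368 CPM in U2932 with TK, against 194, 144 and 159.7 CPM (8 h) and 164 CPM (18 h) in U2932 with DMSO. There all 3 TK libraries lay above all 4 controls, as was so for 15.4% of all genes, by a fitted factor of 2.29. For CCNB1, the log2 change was 0.02 ± 0.13 (adjusted p = 0.986) in DOHH2 and 1.198 ± 0.14 (adjusted p = 0.000225) in U2932. The difference for CCNB1 was -1.18 ± 0.19 (adjusted p = 0.00642). CCNB2, cyclin B2, stood at 82.5, 79.1 and 92.9 CPM in DOHH2 with TK, against 89.5, 70.8 and 87.9 CPM (8 h) and 96.7 and 90.8 CPM (18 h) in DOHH2 with DMSO. CCNB2 stood at 242, 196 and 194 CPM in U2932 with TK, against 115, 71.7 and 82.8 CPM (8 h) and 91.0 CPM (18 h) in U2932 with DMSO. For CCNB2, the log2 change was -0.04 ± 0.16 (adjusted p = 0.964) in DOHH2 and 1.23 ± 0.16 (adjusted p = 0.000649) in U2932. The difference for CCNB2 was -1.26 ± 0.23 (adjusted p = 0.00976). CDC20, which activates the anaphase-promoting complex, stood at 217, 158 and 184 CPM in DOHH2 with TK, against 189.7, 136 and 179.6 CPM (8 h) and 207 and 182 CPM (18 h) in DOHH2 with DMSO. CDC20 stood at 541, 475 and 469 CPM in U2932 with TK, against 214, 140.0 and 171 CPM (8 h) and 218 CPM (18 h) in U2932 with DMSO. For CDC20, the log2 change was 0.06 ± 0.18 (adjusted p = 0.947) in DOHH2 and 1.41 ± 0.18 (adjusted p = 0.000649) in U2932. The difference for CDC20 was -1.36 ± 0.26 (adjusted p = 0.0116). The U2932 changes and the differences of all 3 passed without each single library. With DMSO of 18 h as the only control the U2932 changes were as large or nearly so, at 1.21 for CCNB1, 1.21 for CCNB2 and 1.18 for CDC20, but did not pass with 1 control library.

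UBE2S, the ubiquitin-conjugating enzyme that extends chains for the anaphase-promoting complex, stood at 733, 720.0 and 726 CPM in U2932 with TK, against 308, 269.9 and 353 CPM (8 h) and 356 CPM (18 h) in U2932 with DMSO. For UBE2S, the log2 change was -0.10 ± 0.16 (adjusted p = 0.867) in DOHH2 and 1.18 ± 0.16 (adjusted p = 0.000921) in U2932. The difference for UBE2S was -1.28 ± 0.23 (adjusted p = 0.00911). ANAPC11, the RING subunit of that complex, stood at 27.3, 36.3 and 36.3 CPM in DOHH2 with TK, against 44.7, 57.9 and 72.0 CPM (8 h) and 51.5 and 55.0 CPM (18 h) in DOHH2 with DMSO, lower with TK in every library. ANAPC11 stood at 74.2, 79.8 and 68.1 CPM in U2932 with TK, against 44.6, 44.1 and 49.8 CPM (8 h) and 56.8 CPM (18 h) in U2932 with DMSO. For ANAPC11, the log2 change was -0.76 ± 0.17 (adjusted p = 0.0584) in DOHH2 and 0.60 ± 0.17 (adjusted p = 0.0329) in U2932. The difference for ANAPC11 was -1.36 ± 0.24 (adjusted p = 0.00911). BIRC5, the chromosomal passenger protein survivin, stood at 231, 232 and 226 CPM in U2932 with TK, against 139, 102 and 118 CPM (8 h) and 132 CPM (18 h) in U2932 with DMSO. For BIRC5, the log2 change was -0.19 ± 0.15 (adjusted p = 0.706) in DOHH2 and 0.91 ± 0.15 (adjusted p = 0.00388) in U2932. The difference for BIRC5 was -1.09 ± 0.21 (adjusted p = 0.0133). CENPW, a protein of the inner kinetochore, had log2 changes of -0.43 ± 0.23 (adjusted p = 0.512) in DOHH2 and 1.03 ± 0.23 (adjusted p = 0.0145) in U2932, a difference of -1.46 ± 0.33 (adjusted p = 0.0216). UBB, a polyubiquitin gene, stood at 364, 398 and 516 CPM in DOHH2 with TK, against 550.3, 592 and 593 CPM (8 h) and 566 and 586 CPM (18 h) in DOHH2 with DMSO, so that TK was above DMSO in U2932 and below it in DOHH2. UBB stood at 922, 880.4 and 892 CPM in U2932 with TK, against 377, 386 and 448 CPM (8 h) and 595 CPM (18 h) in U2932 with DMSO. For UBB, the log2 change was -0.44 ± 0.17 (adjusted p = 0.322) in DOHH2 and 0.99 ± 0.17 (adjusted p = 0.00388) in U2932. The difference for UBB was -1.43 ± 0.24 (adjusted p = 0.00766). The U2932 call of ANAPC11 was lost without any U2932 TK library or any U2932 DMSO 8 h library, and both calls of CENPW without U2932 TK replicate 1 or 2 or U2932 DMSO 8 h replicate 2. The differences of UBE2S, ANAPC11, BIRC5 and UBB passed without each single library.

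**Figure D3:**
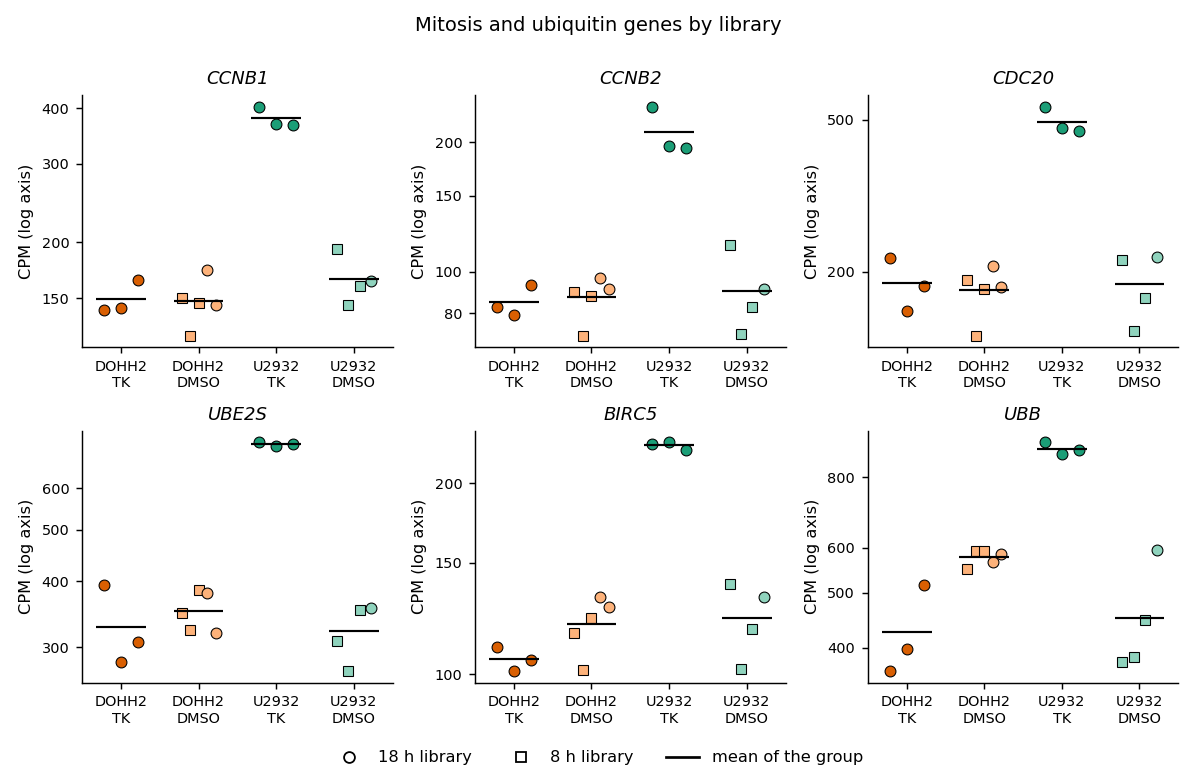
CPM (log axis) of 5 genes of mitosis and of the polyubiquitin gene UBB in each library, drawn as circles (18 h) and squares (8 h) with the group mean as a bar. With TK in U2932, CCNB1 lay at 368 to 403 CPM, above the U2932 controls at 144 to 194 CPM, and the DOHH2 groups overlapped for all but UBB.

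Of 34 genes of mitosis, all above the filter, 18 rose in U2932 and none fell, beside 4.82% higher among all genes, and none passed in DOHH2. In the difference 9 passed, all with the larger value in U2932 (2.77% of all genes): CCNB1, CCNB2, CDC20, BIRC5, AURKA, CENPA, PTTG1, PLK1 and UBE2C. The medians were -0.10 in DOHH2, 0.57 in U2932 and -0.69 in the difference, and 31 members were positive in U2932. When set against DMSO of 18 h alone the medians were -0.27, 0.43 and -0.74 in that order, with 0 calls, and with 1 shared term for time 5 members passed in U2932 and 11 in the difference. The U2932 count was 8 and 10 without U2932 DMSO 8 h replicates 2 and 3, and 7 and 9 without U2932 TK replicates 1 and 2. The count in the difference was 5 without U2932 DMSO 8 h replicate 2, 4 without TK replicate 1 or replicate 2, and 14 without the U2932 DMSO 18 h library.

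Genes of the ribosome and of the respiratory chain were shifted together, higher with TK in U2932. RPS2, a protein of the small ribosomal subunit, stood at 3477, 3394 and 3838 CPM in DOHH2 with TK, against 4012, 4148 and 4803 CPM (8 h) and 4493 and 4531 CPM (18 h) in DOHH2 with DMSO, and there TK lay below DMSO. RPS2 stood at 3348, 3283 and 3139 CPM in U2932 with TK, against 1954, 2121 and 2221 CPM (8 h) and 2525 CPM (18 h) in U2932 with DMSO, without overlap. For RPS2, the log2 change was -0.30 ± 0.12 (adjusted p = 0.359) in DOHH2 and 0.56 ± 0.13 (adjusted p = 0.0143) in U2932. The difference for RPS2 was -0.86 ± 0.18 (adjusted p = 0.0155). RPS15, of the same subunit, stood at 1263, 1325 and 1166 CPM in U2932 with TK, against 741, 851 and 875 CPM (8 h) and 929 CPM (18 h) in U2932 with DMSO. For RPS15, the log2 change was -0.31 ± 0.13 (adjusted p = 0.354) in DOHH2 and 0.56 ± 0.13 (adjusted p = 0.016) in U2932. The difference for RPS15 was -0.87 ± 0.18 (adjusted p = 0.0172). RPL13 and RPL27, of the large subunit, had differences of -0.97 ± 0.20 (adjusted p = 0.0179) and -0.91 ± 0.20 (adjusted p = 0.0197). Of 30 cytosolic ribosomal proteins, 21 rose in U2932 and 18 passed in the difference, all with the larger value in U2932, beside 4.82% and 2.77% of all genes. All 30 were positive in U2932 and 2 in DOHH2, and the medians were -0.21 in DOHH2, 0.49 in U2932 and -0.71 in the difference. Ribosomal protein genes have many near-identical processed copies, so that their counts are uncertain.

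These counts rested on single libraries. For cytosolic ribosomal proteins the U2932 count was 4 and 1 without U2932 DMSO 8 h replicates 1 and 2, and 1, 2 and 10 without U2932 TK replicates 1, 2 and 3. The count in the difference was 0, 1 and 7 without U2932 TK replicates 1, 2 and 3, 4, 4 and 7 without U2932 DMSO 8 h replicates 1, 2 and 3, 6 without DOHH2 DMSO 8 h replicate 3 and 11 without DOHH2 TK replicate 2. Relative to DMSO of 18 h alone no member passed, with medians of -0.07 in DOHH2, 0.39 in U2932 and -0.49 in the difference, and with 1 shared term for time 0 passed in U2932 and 19 in the difference. The difference was lost without U2932 TK replicate 1 for RPS2, and without U2932 TK replicate 1 or 2 for RPS15, RPL13 and RPL27. The U2932 call was lost without U2932 TK replicate 1 or 2 or U2932 DMSO 8 h replicate 2 for RPS2 and U2932 TK replicate 1 or 2 or U2932 DMSO 8 h replicate 1 or 2 for RPS15.

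SDHB, the iron-sulfur subunit of respiratory complex II, stood at 88.2, 112 and 122 CPM in DOHH2 with TK, against 131, 118 and 123 CPM (8 h) and 119 and 116 CPM (18 h) in DOHH2 with DMSO, which overlap. SDHB stood at 159, 146 and 138 CPM in U2932 with TK, against 93.1, 87.7 and 88.5 CPM (8 h) and 105 CPM (18 h) in U2932 with DMSO, without overlap. For SDHB, the log2 change was -0.18 ± 0.12 (adjusted p = 0.649) in DOHH2 and 0.66 ± 0.13 (adjusted p = 0.0072) in U2932. The difference for SDHB was -0.84 ± 0.18 (adjusted p = 0.0179). UQCRFS1, the Rieske protein of complex III, had log2 changes of -0.20 ± 0.10 (adjusted p = 0.509) in DOHH2 and 0.53 ± 0.11 (adjusted p = 0.00901) in U2932, a difference of -0.72 ± 0.15 (adjusted p = 0.0159). NDUFA2 and NDUFB9 of complex I had differences of -1.02 ± 0.23 (adjusted p = 0.0209) and -0.82 ± 0.19 (adjusted p = 0.0244). Of 25 nuclear genes of oxidative phosphorylation, 9 rose in U2932 and 11 passed in the difference, again all with the larger value in U2932 (4.82% and 2.77% of all genes), and all 25 were positive in U2932. The medians were -0.19 in DOHH2, 0.45 in U2932 and -0.62 in the difference. None of the 13 genes of the mitochondrial genome passed, and their medians were 0.00 in DOHH2, -0.08 in U2932 and 0.00 in the difference.

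For oxidative phosphorylation the U2932 count was 0, 3 and 5 without U2932 TK replicates 1, 2 and 3, and 3, 3 and 4 without U2932 DMSO 8 h replicates 1, 2 and 3. It was 16 without DOHH2 TK replicate 1 and 19 without the U2932 DMSO 18 h library. The count in the difference was 0, 0 and 5 without U2932 TK replicates 1, 2 and 3, and 2, 2 and 4 without U2932 DMSO 8 h replicates 1, 2 and 3. It was 5 and 4 without DOHH2 DMSO 8 h replicates 1 and 3, and 7 and 5 without DOHH2 TK replicates 1 and 2. With DMSO of 18 h as the only control no member passed, with medians of -0.18 in DOHH2, 0.28 in U2932 and -0.46 in the difference. The difference was lost without U2932 TK replicate 1 or 2 for SDHB and UQCRFS1, without U2932 TK replicate 1 or 2 or U2932 DMSO 8 h replicate 1 or 2 for NDUFA2 and without DOHH2 TK replicate 2, U2932 TK replicate 1 or 2 or U2932 DMSO 8 h replicate 1 or 2 for NDUFB9. The U2932 call of SDHB and of UQCRFS1 was lost without U2932 TK replicate 1.

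TUBB4B, HSPA8, FDPS and ODC1 also rose with TK in U2932 and passed in the difference. TUBB4B, a beta tubulin, stood at 392, 419.9 and 403 CPM in DOHH2 with TK, against 635, 511 and 616 CPM (8 h) and 637 and 637 CPM (18 h) in DOHH2 with DMSO, so that TK was above DMSO in U2932 and below it in DOHH2. TUBB4B stood at 602, 719 and 672 CPM in U2932 with TK, against 454, 369 and 422 CPM (8 h) and 562 CPM (18 h) in U2932 with DMSO. For TUBB4B, the log2 change was -0.58 ± 0.17 (adjusted p = 0.174) in DOHH2 and 0.56 ± 0.17 (adjusted p = 0.0426) in U2932. The difference for TUBB4B was -1.14 ± 0.24 (adjusted p = 0.0178). Of 15 tubulins, 14 passed the filter. In U2932 2 rose, and 3 passed in the difference with the larger value in U2932, beside 4.82% and 2.77% of all genes. The medians were -0.13 in DOHH2, 0.42 in U2932 and -0.60 in the difference. These medians were -0.27, 0.18 and -0.41 against DMSO of 18 h alone, with 0 calls in the difference. The difference of TUBB4B was lost without U2932 TK replicate 2, and its U2932 call without any 1 of the 15 libraries except DOHH2 TK replicates 1, 2 and 3, DOHH2 DMSO 8 h replicate 2, DOHH2 DMSO 18 h replicate 1 and U2932 DMSO 18 h replicate 2. The tubulin count in the difference was 0 without U2932 TK replicate 2, and 1 without DOHH2 DMSO 8 h replicate 1 or 3, DOHH2 TK replicate 2 or 3, any U2932 DMSO 8 h library or U2932 TK replicate 1 or 3. No tubulin passed in U2932 without any 1 of U2932 DMSO 8 h replicates 1, 2 and 3 or U2932 TK replicates 1, 2 and 3.

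HSPA8, the constitutive chaperone of the HSP70 family, stood at 2892, 3205 and 3329 CPM in DOHH2 with TK, against 3812, 4299 and 4844 CPM (8 h) and 3083 and 3351 CPM (18 h) in DOHH2 with DMSO. HSPA8 stood at 3130.0, 3750.0 and 3521 CPM in U2932 with TK, against 2298, 2746 and 2636 CPM (8 h) and 2099 CPM (18 h) in U2932 with DMSO. For HSPA8, the log2 change was -0.30 ± 0.13 (adjusted p = 0.392) in DOHH2 and 0.50 ± 0.13 (adjusted p = 0.0244) in U2932. The difference for HSPA8 was -0.81 ± 0.19 (adjusted p = 0.0247). Of 16 heat shock genes, 14 passed the filter and 6 rose in U2932 (HSP90AA1, HSP90AB1, AHSA1, HSPA8, HSPE1 and STIP1), but HSPA8 alone passed in the difference. Over all genes 4.82% rose in U2932 and 2.77% passed in the difference with the larger value in U2932. The medians were 0.04 in DOHH2, 0.37 in U2932 and -0.36 in the difference, and 0.05, 0.50 and -0.42 in the same order against DMSO of 18 h alone. The U2932 count was 0 without U2932 TK replicate 1 or 2, 2 without TK replicate 3, and 2, 1 and 3 without U2932 DMSO 8 h replicates 1, 2 and 3. The difference of HSPA8 was lost without U2932 TK replicate 1 or 2 or U2932 DMSO 8 h replicate 1, and its U2932 call without any U2932 TK library or U2932 DMSO 8 h replicate 1 or 2.

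FDPS, the farnesyl diphosphate synthase of cholesterol synthesis, stood at 173, 159 and 165 CPM in DOHH2 with TK, against 188, 165 and 167 CPM (8 h) and 187 and 167 CPM (18 h) in DOHH2 with DMSO, with overlap. FDPS stood at 325, 307 and 291 CPM in U2932 with TK, against 210.2, 216 and 223 CPM (8 h) and 224 CPM (18 h) in U2932 with DMSO. For FDPS, the log2 change was -0.08 ± 0.11 (adjusted p = 0.857) in DOHH2 and 0.49 ± 0.11 (adjusted p = 0.0146) in U2932. The difference for FDPS was -0.57 ± 0.16 (adjusted p = 0.0416). ODC1, the rate-limiting enzyme of polyamine synthesis and a MYC target, stood at 1071, 1151 and 1052 CPM in U2932 with TK, against 739, 748 and 765 CPM (8 h) and 916 CPM (18 h) in U2932 with DMSO. For ODC1, the log2 change was -0.12 ± 0.10 (adjusted p = 0.727) in DOHH2 and 0.46 ± 0.10 (adjusted p = 0.0146) in U2932. The difference for ODC1 was -0.58 ± 0.15 (adjusted p = 0.0316). The DMSO 18 h library of U2932 lay between the TK libraries and the 8 h controls, and against it alone the U2932 change of ODC1 was 0.25. Of 25 MYC targets and ribosome assembly genes, 6 rose in U2932 and 2 passed in the difference (ODC1 and MRTO4), beside 4.82% and 2.77% of all genes. The medians were -0.08 in DOHH2, 0.23 in U2932 and -0.30 in the difference, which were -0.01, 0.14 and -0.095 against DMSO of 18 h alone. The U2932 calls of FDPS and ODC1 were lost without U2932 TK replicate 1 or 2 or U2932 DMSO 8 h replicate 2. The difference was lost without any 1 of the 15 libraries except DOHH2 TK replicate 1, DOHH2 DMSO 18 h replicate 3 and U2932 DMSO 18 h replicate 2 for FDPS, and without DOHH2 TK replicate 2, DOHH2 DMSO 8 h replicate 3, any U2932 TK library or any U2932 DMSO 8 h library for ODC1.

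Other genes were lower with TK in U2932. FBXL20, an F-box protein of ubiquitin ligases, stood at 14.8, 16.6 and 17.0 CPM in DOHH2 with TK, against 13.7, 11.1 and 11.7 CPM (8 h) and 12.4 and 13.0 CPM (18 h) in DOHH2 with DMSO, where TK lay above DMSO. FBXL20 stood at 6.56, 7.99 and 8.40 CPM in U2932 with TK, against 16.9, 15.5 and 17.2 CPM (8 h) and 12.4 CPM (18 h) in U2932 with DMSO. In U2932 the TK libraries of FBXL20 lay below all controls, which the rule for named genes required and which held for 13.6% of all genes. For FBXL20, the log2 change was 0.38 ± 0.14 (adjusted p = 0.322) in DOHH2 and -1.01 ± 0.16 (adjusted p = 0.00216) in U2932. The difference for FBXL20 was 1.40 ± 0.21 (adjusted p = 0.00314). CASP2, the cell death protease caspase-2, stood at 126, 138 and 126 CPM in DOHH2 with TK, against 142, 144 and 137 CPM (8 h) and 159 and 162 CPM (18 h) in DOHH2 with DMSO. CASP2 stood at 44.3, 56.9 and 52.2 CPM in U2932 with TK, against 97.1, 108 and 106 CPM (8 h) and 87.3 CPM (18 h) in U2932 with DMSO. For CASP2, the log2 change was -0.20 ± 0.11 (adjusted p = 0.564) in DOHH2 and -0.96 ± 0.12 (adjusted p = 0.000524) in U2932. The difference for CASP2 was 0.77 ± 0.16 (adjusted p = 0.0179). MCL1, which protects B cells from apoptosis, stood at 282, 303 and 272 CPM in DOHH2 with TK, against 249.6, 253 and 234 CPM (8 h) and 273 and 241 CPM (18 h) in DOHH2 with DMSO, with overlap. MCL1 stood at 1643, 1716 and 1753 CPM in U2932 with TK, against 2402, 2808 and 2555 CPM (8 h) and 1959 CPM (18 h) in U2932 with DMSO. For MCL1, the log2 change was 0.19 ± 0.12 (adjusted p = 0.622) in DOHH2 and -0.51 ± 0.13 (adjusted p = 0.0215) in U2932. The difference for MCL1 was 0.70 ± 0.18 (adjusted p = 0.0326). When set against DMSO of 18 h alone the U2932 changes were -0.69 for FBXL20, -0.77 for CASP2 and -0.20 for MCL1.

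POU2AF1, a B cell coactivator of octamer-binding factors, stood at 348, 414 and 379 CPM in U2932 with TK, against 527, 573 and 621 CPM (8 h) and 537 CPM (18 h) in U2932 with DMSO. For POU2AF1, the log2 change was 0.11 ± 0.14 (adjusted p = 0.82) in DOHH2 and -0.57 ± 0.14 (adjusted p = 0.0206) in U2932. The difference for POU2AF1 was 0.68 ± 0.20 (adjusted p = 0.0495). TSPOAP1, which encodes a protein that binds the mitochondrial translocator protein, stood at 5.17, 6.67 and 8.87 CPM in U2932 with TK, against 13.0, 19.1 and 24.04 CPM (8 h) and 12.5 CPM (18 h) in U2932 with DMSO. For TSPOAP1, the log2 change was 0.34 ± 0.29 (adjusted p = 0.73) in DOHH2 and -1.31 ± 0.31 (adjusted p = 0.0172) in U2932. The difference for TSPOAP1 was 1.65 ± 0.42 (adjusted p = 0.0321). For FBXL20 both calls passed without each single library, and for CASP2 the difference was lost without U2932 TK replicate 1. The difference of MCL1 was lost without DOHH2 TK replicate 2, DOHH2 DMSO 8 h replicate 3, any U2932 TK library or any U2932 DMSO 8 h library, and its U2932 call without any U2932 TK library or any U2932 DMSO 8 h library. That of POU2AF1 was lost without any 1 of the 15 libraries except U2932 DMSO 18 h replicate 2, and its U2932 call without any U2932 TK library or U2932 DMSO 8 h replicate 2 or 3. That of TSPOAP1 was lost without DOHH2 TK replicate 1, DOHH2 DMSO 8 h replicate 3, U2932 TK replicate 1 or 2 or any U2932 DMSO 8 h library, and its U2932 call without U2932 TK replicate 1 or 2 or U2932 DMSO 8 h replicate 2 or 3. Of 19 genes of the BCL2 family, 1 rose in DOHH2 (BBC3), and in U2932 1 rose (BCL2L13) and 2 fell (MCL1 and BCL2L11), beside 0.200% of all genes higher in DOHH2 and 4.82% higher and 4.88% lower in U2932, so that the U2932 counts were near those of all genes. In the difference MCL1 passed with the larger value in DOHH2 and BID with the larger value in U2932, beside 1.69% and 2.77% of all genes.

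Among the 237 genes that passed in the difference alone, 78 had the larger value in DOHH2 and 159 in U2932. CREBRF, a regulator of the stress factor CREB3, stood at 6.92, 12.1 and 10.6 CPM in DOHH2 with TK, against 4.59, 4.28 and 4.697 CPM (8 h) and 3.997 and 4.36 CPM (18 h) in DOHH2 with DMSO. CREBRF stood at 10.1, 7.10 and 8.51 CPM in U2932 with TK, against 19.9, 11.6 and 10.6 CPM (8 h) and 5.86 CPM (18 h) in U2932 with DMSO. For CREBRF, the log2 change was 1.17 ± 0.27 (adjusted p = 0.0641) in DOHH2 and -0.48 ± 0.28 (adjusted p = 0.289) in U2932. The difference for CREBRF was 1.65 ± 0.39 (adjusted p = 0.0272). BACH2, a repressor of B cell differentiation, stood at 18.4, 20.2 and 14.9 CPM in DOHH2 with TK, against 6.28, 11.03 and 10.4 CPM (8 h) and 12.2 and 11.4 CPM (18 h) in DOHH2 with DMSO. For BACH2, the log2 change was 0.80 ± 0.19 (adjusted p = 0.0899) in DOHH2 and -0.19 ± 0.20 (adjusted p = 0.582) in U2932. The difference for BACH2 was 0.98 ± 0.28 (adjusted p = 0.0482). TLCD1, which encodes a membrane protein, stood at 3.10, 3.77 and 3.94 CPM in DOHH2 with TK, against 7.10, 6.50 and 6.83 CPM (8 h) and 7.202 and 7.24 CPM (18 h) in DOHH2 with DMSO, and in U2932 at 7.95, 11.9 and 10.6 CPM in U2932 with TK, against 6.77, 4.18 and 4.699 CPM (8 h) and 12.6 CPM (18 h) in U2932 with DMSO. For TLCD1, the log2 change was -0.95 ± 0.25 (adjusted p = 0.137) in DOHH2 and 0.51 ± 0.25 (adjusted p = 0.188) in U2932. The difference for TLCD1 was -1.46 ± 0.35 (adjusted p = 0.0285). BID, a BH3-only activator of cell death, stood at 77.7, 62.0 and 59.0 CPM in DOHH2 with TK, against 85.1, 103 and 102 CPM (8 h) and 76.5 and 75.8 CPM (18 h) in DOHH2 with DMSO. For BID, the log2 change was -0.42 ± 0.13 (adjusted p = 0.222) in DOHH2 and 0.25 ± 0.14 (adjusted p = 0.249) in U2932. The difference for BID was -0.67 ± 0.19 (adjusted p = 0.0465).

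LGALS1, galectin-1, shows how the time of the controls enters the comparison. It stood at 112, 125 and 134 CPM in DOHH2 with TK, against 301, 320.3 and 312 CPM (8 h) and 134 and 127 CPM (18 h) in DOHH2 with DMSO: the TK libraries lay with the DMSO libraries of 18 h and far below those of 8 h. LGALS1 stood at 10.2, 7.42 and 11.6 CPM in U2932 with TK, against 7.29, 6.96 and 6.15 CPM (8 h) and 5.38 CPM (18 h) in U2932 with DMSO. For LGALS1, the log2 change was -0.95 ± 0.28 (adjusted p = 0.205) in DOHH2 and 0.60 ± 0.31 (adjusted p = 0.217) in U2932. The difference for LGALS1 was -1.55 ± 0.42 (adjusted p = 0.0416). Relative to DMSO of 18 h alone the DOHH2 change was -0.07. Under that control the U2932 changes of CREBRF and TLCD1 turned sign, to 0.55 and -0.31, and their differences were 0.70 and -0.69. The differences of BACH2 and BID were then 0.48 and -0.30. Between the DMSO libraries of 18 h and 8 h, 104 genes passed in DOHH2 and 6 in U2932, with 1786 and 1873 genes at an unadjusted p under 0.05. The differences of LGALS1 and of CREBRF, BACH2, TLCD1 and BID rested on single libraries. The call was lost without DOHH2 TK replicate 2, any U2932 TK library or U2932 DMSO 8 h replicate 1 or 2 for CREBRF, and without DOHH2 TK replicate 2, any U2932 TK library or any U2932 DMSO 8 h library for TLCD1. It was lost without any 1 of the 15 libraries except DOHH2 TK replicate 3, DOHH2 DMSO 18 h replicate 1 and U2932 DMSO 18 h replicate 2 for BACH2. It was lost without any 1 of the 15 libraries except DOHH2 TK replicate 1, DOHH2 DMSO 18 h replicates 1 and 3 and U2932 DMSO 18 h replicate 2 for BID. It was lost without any 1 of the 15 libraries except DOHH2 DMSO 18 h replicates 1 and 3 and U2932 DMSO 18 h replicate 2 for LGALS1.

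**Figure D4:**
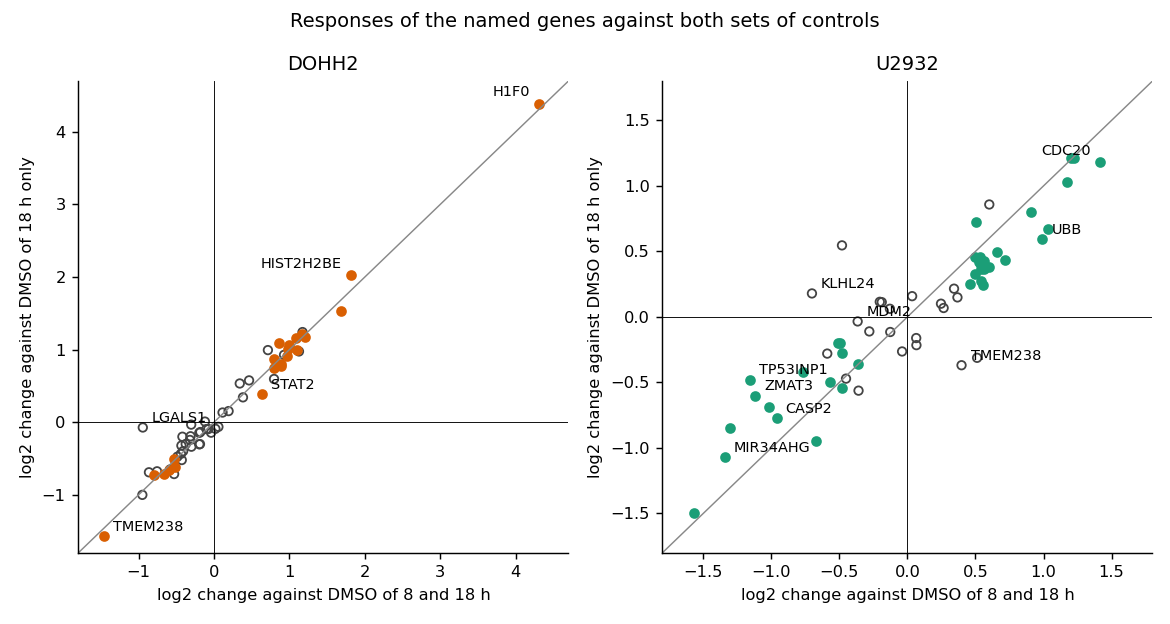
Log2 change with TK at 18 h of the genes named here against DMSO of both times (x axis) and against DMSO of 18 h only (y axis), in DOHH2 (left) and U2932 (right); filled points passed 0.05 against both times and the grey line marks equal values. H1F0 lies at 4.32 and 4.39 in DOHH2, while TP53INP1 in U2932 lies at -1.16 against both times and at -0.48 against 18 h only.

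Across the 40 gene lists, 17 had no member past 0.05 in the difference, 12 had 1, 5 had 2 and 6 had 3 or more. A member passed in DOHH2 in 7 lists and in U2932 in 30. Over all genes 0.267% passed in DOHH2, 9.70% in U2932 and 4.45% in the difference. Whether the numbers of lists exceed what these shares give was not tested. Of 16 PI3K and FOXO targets, 15 passed the filter, 1 rose in DOHH2 (KLHL24), 1 fell in U2932 (BCL2L11, a cell death activator) and KLHL24 passed in the difference. Over all genes 0.200% rose in DOHH2, 4.88% fell in U2932 and 1.69% passed in the difference with the larger value in DOHH2. Positive were 13 of the 15 targets in DOHH2 and 2 in U2932. Their medians were 0.23 in DOHH2, -0.32 in U2932 and 0.62 in the difference, but 0.23, 0.01 and 0.31 in that order against DMSO of 18 h alone. No member passed in DOHH2 without DOHH2 DMSO 8 h replicate 1 or 3 or without DOHH2 TK replicate 2 or 3, and none in U2932 without U2932 DMSO 8 h replicate 2 or 3 or any U2932 TK replicate.

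In other lists few genes passed in the difference. Over all genes 1.69% passed in it with the larger value in DOHH2 and 2.77% with the larger value in U2932. Within a line, 0.200% of all genes rose in DOHH2 and 4.88% fell in U2932. Of 33 genes of DNA replication, 1 fell in U2932 and none passed in the difference, with medians of -0.12 in DOHH2, 0.00 in U2932 and -0.14 in the difference. Of 29 interferon-stimulated genes, 2 rose in DOHH2 (STAT2 and HERC5) and STAT2 passed in the difference, with medians of 0.29, 0.04 and 0.48 in that order, but 0.05, -0.20 and 0.35 against DMSO of 18 h alone. Of 20 NF-kB targets, none passed in either line, and the chemokine gene CCL4 passed in the difference at -2.26 ± 0.65. The NF-kB medians were -0.25 in DOHH2, 0.05 in U2932 and -0.30 in the difference, but 0.43, -0.06 and 0.47 in that order against DMSO of 18 h alone, so that their sign in DOHH2 and in the difference turned with the controls. Of 20 genes of B cell identity, BACH2 and POU2AF1 passed in the difference, and the medians were 0.07 in DOHH2, 0.07 in U2932 and -0.10 in the difference, the last of which turned to 0.16 against DMSO of 18 h alone. Of 23 genes of cholesterol synthesis and uptake above the filter, FDPS and STARD4, a cholesterol transporter, passed in the difference in opposite directions.

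**Figure D5:**
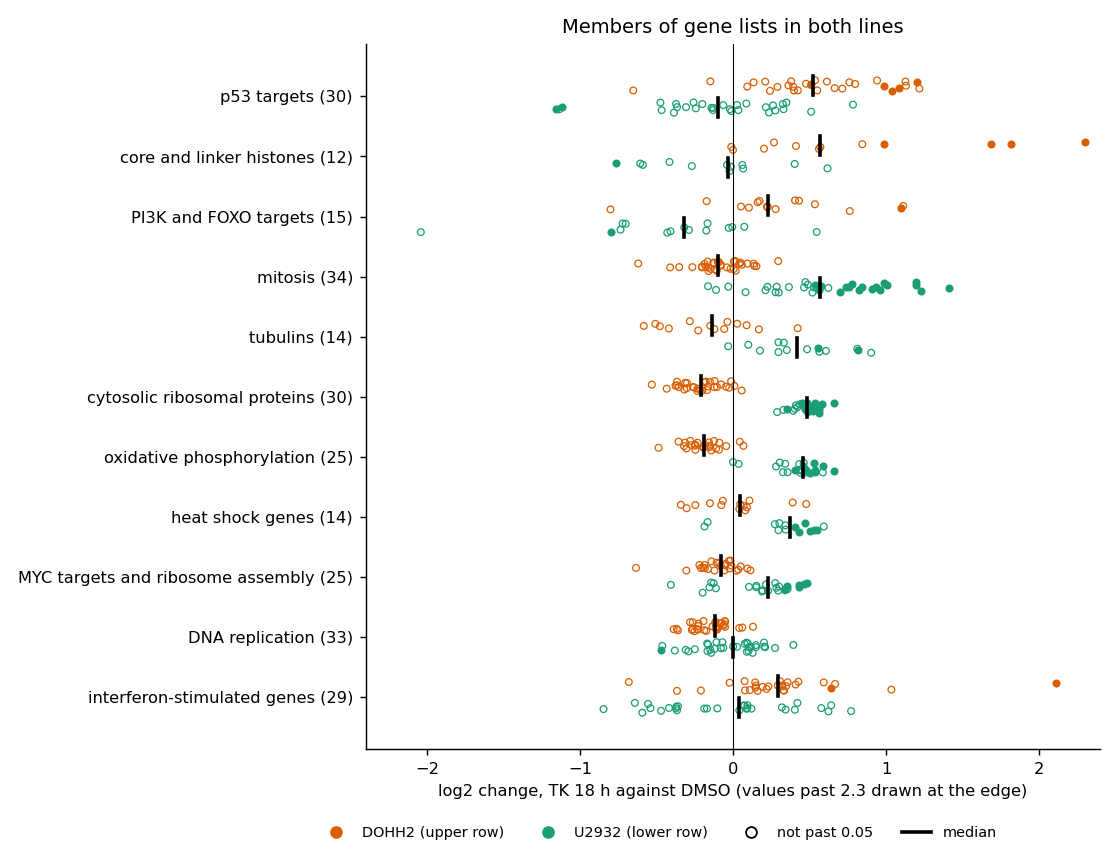
Log2 change with TK at 18 h of each member of 11 gene lists, in DOHH2 (upper row of each pair) and U2932 (lower row); filled points passed 0.05, bars are medians and the number of members tested is in brackets. The p53 targets and histones lie to the right in DOHH2 (medians 0.52 and 0.57), whereas mitosis, cytosolic ribosomal proteins and oxidative phosphorylation lie to the right in U2932 (medians 0.57, 0.49 and 0.45).

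The responses moved with exonic length, here the summed exons of a gene in GENCODE v29. The median length was 4798 bases for genes higher in DOHH2 and 1945 bases for genes lower in DOHH2, 3064 bases for genes higher in U2932 and 5733 bases for genes lower in U2932, and 4322 bases over all genes tested. Over 5 groups of equal size by length, shortest to longest, the median difference was -0.11, -0.13, 0.00, 0.11 and 0.24, and the median U2932 change was 0.06, 0.08, 0.01, -0.06 and -0.14. Against DMSO of 18 h alone the median U2932 change was 0.015, 0.023, 0.012, -0.015 and -0.033. Between DMSO of 18 h and of 8 h in U2932, without TK, it was 0.069, 0.087, 0.011, -0.037 and -0.129. The part of time in the trend with length was not tested. Protein-coding genes made up 96.2% of the genes higher in U2932 and 79.0% of all genes. With an offset for length, 971 genes were higher and 611 lower in U2932, and the difference had 192 genes with the larger value in DOHH2 and 534 with the larger value in U2932, against 278 and 456 without it. Of the 726 genes then called in the difference, 609 were among the 734. With it the differences of NEAT1, KDM5B, BACH2, POU2AF1 and TSPOAP1 did not pass. For the gene lists given next, the median of the difference kept its sign, and the other lists are not covered. With the offset these medians were 0.60 for p53 targets, -0.72 for mitosis, -0.69 for cytosolic ribosomal proteins, -0.65 for oxidative phosphorylation, 0.58 for histones and 0.47 for PI3K and FOXO targets, with 9, 10, 20, 10, 5 and 1 calls in that order. Without it they were 0.64, -0.69, -0.71, -0.62, 0.53 and 0.62 with 8, 9, 18, 11, 5 and 1 calls.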

How the data were processed

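Polyadenylated RNA of 20 libraries was sequenced. The values are raw read counts per gene deposited by the authors, 1 file per library, with 58288 genes and 5 summary entries. Per the submitters' processing notes STAR, HTSeq and edgeR were used on GRCh38.p10, while versions, annotation release and strand setting were not stated there. Per the labels' protocols, RNA was DNase-treated and fragmented before adapter ligation. The summary entries (32.7 to 62.7% of a library's counts) were left out of library sizes and tests.

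Groups were taken from the labels. Genes with at least 10 counts in the median library (0.288 CPM) in at least 3 libraries were kept (16478). edgeR 4.0.16 (R 4.3.3) fitted quasi-likelihood models with TMM scaling and robust spread to all 20 libraries, with 1 coefficient for each line and treatment (DMSO of both times, TK 8 h, TK 18 h). Adjusted p-values are Benjamini-Hochberg over all genes kept, two-sided, with a threshold of 0.05, and log2 changes are given ± SE. CPM values are edgeR's, scaled by TMM. No library pair held identical counts. The procedure was tested on simulated data. Alternatives were RLE scaling, other filters, the 15 libraries alone, DMSO of 18 h alone, a shared time term, a replicate block, a test against a 1.5-fold change, DESeq2 1.42.0, limma 3.58.1 voom with quality weights, each library left out and, added after the data were seen, an offset for exonic length. The run on the 15 libraries kept the genes filtered on all 20.

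The comparison, the 40 gene lists and the markers were chosen with earlier results of these data known. The genes named follow a rule: in the difference and in each class, up to 10 in each direction by size at 5 CPM or more with TK libraries on 1 side of DMSO where called, up to 4 members of each list, and the 5 nearest where a class is small. It gave 102 genes, of which 59 are described, and others were named after their values were seen. For genes taken by class or by size of the difference, no overlap in a called line was thus a condition of the choice. Gene positions and lengths are from GENCODE v29 (16433 genes matched), sequences from RefSeq GRCh38.p14. CPM and counts carry counting error besides the spread between libraries. A further B cell marker is not reported here.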

Additional observations from a re-analysis of the deposited data

Results flagged for a closer look

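The difference between the responses to TK, tested as an interaction, passed an adjusted p of 0.05 in edgeR for 52 of the genes named. The log2 difference, DOHH2 minus U2932, was positive for H1F0 (4.36), HIST2H2BE (2.403), TP53INP1 (2.28), MIR34AHG (2.20), ZMAT3 (1.83), KLHL24 (1.796), HIST1H2AC (1.75), CREBRF (1.65), TSPOAP1 (1.65), FAM212B (1.62), HIST1H2BJ (1.62), MDM2 (1.57), FBXL20 (1.40), PNRC1 (1.29), GABARAPL1 (1.24), SESN1 (1.21), CALCOCO1 (1.01), STAT2 (1.001), KDM5B (0.996), BACH2 (0.98), SESN2 (0.95), NEAT1 (0.82), CASP2 (0.77), MCL1 (0.70) and POU2AF1 (0.68). It was negative for TMEM238 (-1.86), LGALS1 (-1.55), TLCD1 (-1.46), CENPW (-1.46), UBB (-1.43), ANAPC11 (-1.36), CDC20 (-1.36), UBE2S (-1.28), CCNB2 (-1.26), CCNB1 (-1.18), ENDOG (-1.16), TUBB4B (-1.14), BIRC5 (-1.09), NDUFA2 (-1.02), RPL13 (-0.97), RPL27 (-0.91), NUTF2 (-0.87), RPS15 (-0.87), RPS2 (-0.86), SDHB (-0.84), NDUFB9 (-0.82), HSPA8 (-0.81), DANCR (-0.79), UQCRFS1 (-0.72), BID (-0.67), ODC1 (-0.58) and FDPS (-0.57). Of these, 23 passed without each single library.

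In 6 of 118 groups of values tested for a library apart, 1 library lay outside the others by Dixon's criterion, which chance gives in about 1 of 20 groups. The U2932 DMSO 18 h library was low for MDM2 (71.9 CPM, the next 94.7 CPM) and high for TMEM238 (4.73 CPM, the next 2.27 CPM) and ODC1 (916 CPM, the next 765 CPM). DOHH2 DMSO 8 h replicate 3 was high for HIST2H2BE (2.16 CPM, the next 1.31 CPM). DOHH2 DMSO 8 h replicate 2 was low for TUBB4B (511 CPM, the next 616 CPM) and CENPW (14.3 CPM, the next 18.4 CPM).

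Outside the gene counts, the share of counts without a unique alignment was 56.6% in DOHH2 TK replicate 1, against at most 34.3% in DOHH2 with DMSO. It was 31.9%, 27.7% and 25.3% in U2932 TK replicates 1, 2 and 3, against at most 25.1% in U2932 with DMSO. The share outside any gene was 8.34% and 7.78% in DOHH2 TK replicates 2 and 3, against at most 7.61% in DOHH2 with DMSO. The part of these shares in the responses was not tested. Without DOHH2 TK replicate 1, 10 of the 22 DOHH2 calls and 4 of the 52 differences of the genes named were lost, and the median of the histones in DOHH2 was 0.26, against 0.57 with it.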

How the results depend on the processing

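Over all alternatives to the differences and the called changes of the 59 genes named, 2467 values stayed on the same side of the threshold, 597 no longer passed and 4 turned sign. Those 4 were differences that did not pass: EXOSC6 (-0.13 against DMSO of 18 h alone and -0.0041 to 0.138 with a library left out, the lowest without U2932 DMSO 8 h replicate 2), DDIT3 (0.30 against DMSO of 18 h alone) and PAQR4 (-0.046 with voom). Changes that were not called are outside these counts, and against DMSO of 18 h alone 9 of them turned sign in U2932 (SESN1, HIST1H2BJ, KLHL24, NEAT1, TMEM238, KDM5B, CREBRF, TLCD1 and BACH2) and 3 in DOHH2 (CCNB1, CDC20 and ODC1). RLE scaling, a filter of 50 counts and the length offset kept all 6 counts below within 1.5 times.

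Calls in DOHH2, 44, were 252 without a filter, 12 against DMSO of 18 h alone, 7 against a 1.5-fold change, 176 with DESeq2 and 1532 with voom, and 26 to 62 with a library left out. Calls in U2932, 1599, were 138 with a shared time term, 0 against a 1.5-fold change in edgeR, 2375 with DESeq2, 6809 with voom and 80 to 2801 with a library left out. DESeq2 and voom tested against no change. The main edgeR test, also against no change, gave 4455 genes at an unadjusted p under 0.05 in U2932. The difference, 734, was 1366 without a filter, 1169 in the 15 libraries alone, 4 against DMSO of 18 h alone, 3 against a 1.5-fold change, 1568 with DESeq2, 5722 with voom and 70 to 1832 with a library left out. Shared genes, 2, were 13 without a filter, 4 in the 15 libraries, 0 against DMSO of 18 h alone, 1 with a shared time term, 0 against a 1.5-fold change, 16 with DESeq2, 196 with voom and 0 to 3 with a library left out; SNHG10 and CDCA4 were among the 4 and the 16, but not among the 13, and the 1 was PAQR4. Genes specific to DOHH2, 26, were 113 without a filter, 1 against DMSO of 18 h alone, 2 against a 1.5-fold change, 83 with DESeq2, 535 with voom and 14 to 27 with a library left out. Genes specific to U2932, 468, were 883 without a filter, 806 in the 15 libraries, 3 against DMSO of 18 h alone, 76 with a shared time term, 0 against a 1.5-fold change, 1038 with DESeq2, 3946 with voom and 15 to 1401 with a library left out. Fewer control libraries enter with DMSO of 18 h alone and more genes are tested without a filter; the cause of the other shifts was not tested.

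Whether replicate numbers pair the libraries is not said in the labels and was not tested. Deviations of same-numbered libraries correlated at -0.20 to 0.01 in DOHH2 and 0.10 to 0.46 in U2932. Those of differently numbered libraries correlated at -0.30 to 0.22 in DOHH2 and -0.48 to 0.33 in U2932. With a replicate block the difference had 353 calls, 336 of them among the 734, genes specific to U2932 numbered 207 and shared genes 1 (LINC01480, so that neither SNHG10 nor CDCA4 stayed shared), and DOHH2 and U2932 had 41 and 1312 calls.

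Depth limits genes near the filter: 1 count in the deepest library is 0.0191 CPM.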
